A study of Mus musculus with 8 samples.

Results

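The Jade1 locus on mouse chromosome 3 was followed through 4 genes that lie side by side, Platr4, 2400006E01Rik, Jade1 and Sclt1. They were chosen by symbol and are 4 of the 22810 genes in the deposited table. All 4 passed the filter on low counts, at least 10 reads in at least 1 allele of 1 embryo, as did 12565 autosomal genes in all. RNA of single embryonic day 3.5 (E3.5) mouse blastocysts was sequenced with SMART-Seq2 after reciprocal natural matings of C57BL/6 (B6) and Mus musculus castaneus (cast) mice, without culture. The forward cross had a B6 mother and a cast father (3 embryos, numbered 1, 2 and 3), and the reverse cross a cast mother and a B6 father (5 embryos, numbered 1, 2, 3, 5 and 7). Both crosses were otherwise untreated, and per the methods the embryos were not matched for sex. Reads that cover a single nucleotide polymorphism (SNP) between the strains were counted for each allele. Each embryo therefore gave a maternal and a paternal count of every gene.

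A gene that is expressed according to the parent an allele came from is called imprinted. Reading the same gene in both directions of a cross separates parent from strain, because each strain is the mother in one cross and the father in the other. Jade1 encodes a PHD finger scaffold protein of the HBO1 histone acetyltransferase complex, which acetylates histones H3 and H4. Sclt1 encodes a protein of the centriole distal appendages, which anchor the centriole to the membrane when a cilium forms. Platr4 belongs to a set of long non-coding RNAs named for their association with pluripotency, and 2400006E01Rik is also a long non-coding RNA. The E3.5 blastocyst consists of an outer trophectoderm and an inner cell mass from which epiblast and primitive endoderm arise.

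In mm10 coordinates of the GENCODE annotation, Platr4 (lincRNA, minus strand) lies at chr3:41484024-41493192, 2400006E01Rik (lincRNA, minus strand) at chr3:41521247-41528474, Jade1 (protein coding, plus strand) at chr3:41555731-41616864 and Sclt1 (protein coding, minus strand) at chr3:41626720-41742514. The 4 genes span 258.5 kb. The start of 2400006E01Rik is 27.3 kb from that of Jade1, on the opposite strand, and 9.86 kb separate the end of Jade1 from the end of Sclt1. The RefSeq annotation draws 2 of the non-coding genes differently, with 2400006E01Rik at chr3:41500931-41528474 and Platr4 at chr3:41487681-41493199. An antisense gene within Jade1, Gm31266, has no row in the table, and its reads could not be told from those of Jade1 if strand was not used in counting. Gm6069, on the opposite strand within Platr4, and Gm38047, on the same strand within Sclt1, also have no row.

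The promoters are shown because 2400006E01Rik and Jade1 shared the paternal bias described below while Sclt1, on the far side of Jade1, did not. RefSeq sequences of GRCm38.p6, the build of mm10, run from 250 bases before to 50 after a start site and were matched for 3 of the 4 genes. No promoter was matched for Platr4, which shared the paternal bias. Capitals mark 4 short motifs, searched on both strands. The GC box was written as GGGCGG and was present in 35.7% of all 32851 promoters of the same length. The box named for its letters CCAAT was present in 37.4% of them. The TATA box, with the letters TATAAA, was found in 13.6% of promoters. The motif of the TEAD factors was searched as GGAATG and was found in 14.7%. The lines give 2400006E01Rik (chr3:41528425-41528724, minus), start sites 1 and 3 of the 4 at Jade1 (chr3:41555484-41555783 and chr3:41563501-41563800, plus) and Sclt1 (chr3:41742465-41742764, minus), each 5′ to 3′ in the direction of the gene.
2400006E01Rik: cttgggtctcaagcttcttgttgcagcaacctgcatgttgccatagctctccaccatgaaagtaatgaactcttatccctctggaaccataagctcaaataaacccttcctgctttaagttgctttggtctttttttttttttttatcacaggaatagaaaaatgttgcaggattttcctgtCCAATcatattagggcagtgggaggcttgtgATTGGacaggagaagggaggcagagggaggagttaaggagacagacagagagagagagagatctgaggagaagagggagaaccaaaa
Jade1 start site 1: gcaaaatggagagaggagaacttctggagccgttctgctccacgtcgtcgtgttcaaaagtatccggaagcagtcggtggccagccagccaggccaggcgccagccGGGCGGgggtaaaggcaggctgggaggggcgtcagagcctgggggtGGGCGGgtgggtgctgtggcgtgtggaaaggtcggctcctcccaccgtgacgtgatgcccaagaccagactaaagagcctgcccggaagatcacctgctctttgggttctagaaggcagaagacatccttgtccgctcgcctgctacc
Jade1 start site 3: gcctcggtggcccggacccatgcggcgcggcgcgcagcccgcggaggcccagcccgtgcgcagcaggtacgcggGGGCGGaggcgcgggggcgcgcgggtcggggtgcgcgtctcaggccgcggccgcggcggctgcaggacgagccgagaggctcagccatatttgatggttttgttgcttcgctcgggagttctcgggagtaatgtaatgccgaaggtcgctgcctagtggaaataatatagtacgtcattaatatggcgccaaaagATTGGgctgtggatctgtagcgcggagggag
Sclt1: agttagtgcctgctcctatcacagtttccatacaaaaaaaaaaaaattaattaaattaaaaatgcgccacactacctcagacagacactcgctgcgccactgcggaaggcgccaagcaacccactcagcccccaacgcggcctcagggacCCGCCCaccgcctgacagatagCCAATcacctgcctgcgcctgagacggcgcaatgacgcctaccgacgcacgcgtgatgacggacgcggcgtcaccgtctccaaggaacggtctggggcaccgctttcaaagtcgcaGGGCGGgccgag
The promoter of 2400006E01Rik held 0 CpG dinucleotides, as did 5.43% of all promoters, against a median of 7 over all promoters. It held 2 CCAAT boxes, which begin 68 and 37 bases before the start. The 4 Jade1 windows held 18, 14, 38 and 25 CpG dinucleotides, and the window of start site 3 was in the top 4.95% of promoters. GC boxes were found in each Jade1 window, 2, 1, 1 and 2 of them, and the window of start site 4 alone held TEAD motifs, 2 on the plus strand. The Sclt1 window held 27 CpG dinucleotides, 2 GC boxes and 1 CCAAT box. No window of these genes held a TATA box.

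The embryos had between 1060063 and 1632695 SNP-spanning reads, and 57.4% to 58.3% of them came from the B6 allele in either cross. Each of the 6 trophectoderm, 4 inner cell mass and 4 primitive endoderm markers examined was detected in all 8 embryos. Reverse embryo 1 stood apart, with 903 CPM (reads scaled to a total of 1000000) for the trophectoderm markers against 3659 to 4976 in the other embryos. Forward embryo 1 had 862 CPM for the 9 macrophage and leukocyte genes, of which 99.9% were maternal, against 4.38 to 58.7 in the other embryos. Parental differences of the members are also given without these embryos where they held many of the reads. Levels are not compared between genes, since the reads of a gene depend on the SNPs it carries.

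Jade1, 2400006E01Rik and Platr4 were read almost entirely from the paternal allele, in each of the 8 embryos. The maternal reads made up 23 of 1014 at Jade1, 25 of 709 at 2400006E01Rik and 8 of 188 at Platr4. Sclt1, which begins at the far end of the interval and is transcribed toward Jade1, was read from both alleles, with 183 maternal and 100 paternal reads. The plot of allele reads by embryo shows the 4 genes.

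**Figure D1:**
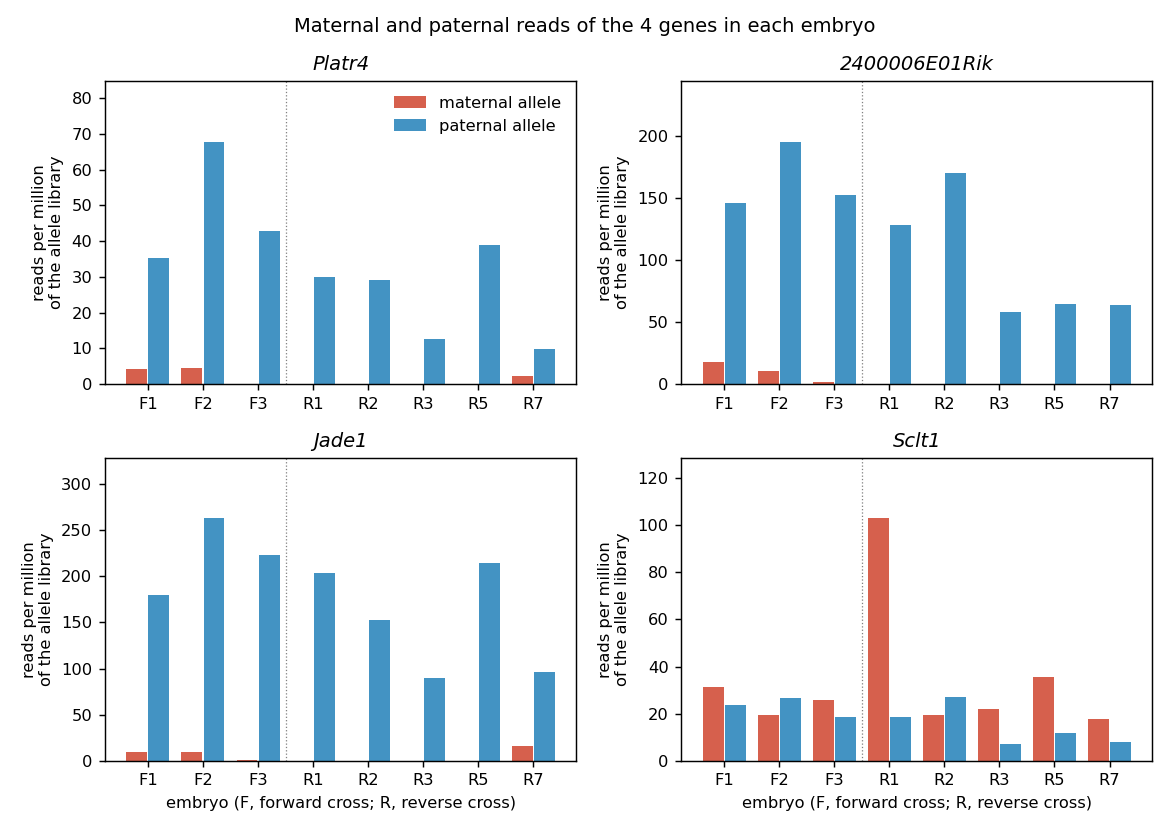
Bars give the CPM of the maternal (red) and the paternal (blue) allele library for each embryo, forward (F) left and reverse (R) right of the dotted line, in a panel for each gene. Paternal bars were higher in 8 of 8 embryos for Platr4, 2400006E01Rik and Jade1, while the maternal bar of Sclt1 reached 103 CPM in reverse embryo 1.

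Jade1 had 122, 128 and 120 paternal reads in forward embryos 1, 2 and 3, and 9, 6 and 1 maternal reads. In reverse embryos 1, 2, 3, 5 and 7 it had 176, 142, 78, 166 and 59 paternal reads, and 0, 0, 0, 0 and 7 maternal reads. The lowest paternal count was 59 and the highest maternal count 9, and how many of the genes tested separate in this way was not counted. Forward embryos had a mean paternal share of 95.9% ± 3.0 (SD, n = 3), and reverse embryos one of 97.9% ± 4.7 (SD, n = 5). Where no maternal read was seen, the reads allowed a maternal share of up to 1.70% to 3.85%. The paternal allele was higher by 5.28 on the log2 scale (SE 0.58, adjusted p = 3.26e-06, edgeR's quasi-likelihood test with Benjamini-Hochberg adjustment over all genes tested).

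For 2400006E01Rik the paternal reads were 99, 95 and 82 in the forward embryos, with 17, 7 and 1 maternal reads. The reverse embryos had 111, 158, 50, 50 and 39 paternal reads, and none had a maternal read. The cast maternal allele of this RNA thus gave 0 of 408 reads, which allows a maternal share of up to 0.735% over the cross, and the paternal allele was at least 99.2-fold higher there per library total, with 3 reads over the cross as the floor. The B6 maternal allele gave 25 of 301 reads, which makes the forward paternal share 92.4% ± 6.8 (SD, n = 3). The fitted parental difference was 4.84 (log2, SE 0.65, edgeR adjusted p = 5.16e-05). Without forward embryo 1, which holds 17 of the 25 maternal reads, it was 5.85 (edgeR adjusted p = 3.12e-05).

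Platr4 had the fewest reads of the 3 paternally biased members. It gave 24, 33 and 23 paternal reads in the forward embryos against 4, 3 and 0 maternal reads, and 26, 27, 11, 30 and 6 paternal reads in the reverse embryos against 0, 0, 0, 0 and 1. The paternal share was 92.5% ± 7.2 (SD, n = 3) and 97.1% ± 6.4 (SD, n = 5), and at this depth an embryo without a maternal read still allowed a maternal share of 10% to 27.3%. The parental difference was 4.32 (log2, SE 0.71, edgeR adjusted p = 5.93e-04). It was 4.93 without forward embryo 1.

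These 3 genes were among the 139 of 12565 tested genes called toward the paternal allele (1.11%), and among the 179 called in either direction (1.42%). Jade1 and Platr4 passed the filter on low counts through paternal reads only, with highest maternal counts of 9 and 4. Without a filter both were also called (edgeR adjusted p = 2.05e-32 and 4.91e-08). The 3 genes also met a 70:30 criterion, as did 173 genes (1.38%). It asks for a paternal share of 70% or more, with 5 or more reads, in 60% or more of the embryos of each cross. Every one of the embryos met it at each of these genes. The 3 calls held in each alternative that gave a value and without each embryo in turn. Jade1 moved most without reverse embryo 7, to 5.89, and was at 5.69 without forward embryo 1, which held 9 of its 23 maternal reads.

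Sclt1 did not share the bias. Its maternal reads were 30, 13 and 19 in the forward and 66, 13, 14, 20 and 8 in the reverse embryos, and its paternal reads 16, 13 and 10, and 16, 25, 6, 9 and 5. More maternal than paternal reads were counted in 6 of 8 embryos, reverse embryo 2 had more paternal reads and forward embryo 2 had equal numbers. The paternal share was 39.8% ± 8.9 (SD, n = 3) and 37.0% ± 17.5 (SD, n = 5). The parental difference of -0.81 (log2, SE 0.42) was not called (edgeR adjusted p = 0.742).

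Equal expression of the Sclt1 alleles was not shown either. An equivalence test against a log2 difference of 1 called 4477 genes (35.6% of those tested), and Sclt1 was not among them (edgeR adjusted p = 0.453). The number of genes called fell to 2087, 1832 and 1615 without forward embryos 1, 2 and 3, and to 0 at a margin of 1.5-fold, where edgeR gave 1137 genes an unadjusted p under 0.05. It rose to 5659 without reverse embryo 1. Reverse embryo 1 held 66 of the 183 maternal reads of Sclt1. Without it the parental difference was -0.50 (SE 0.37, edgeR adjusted p = 0.928) and the equivalence test gave an adjusted p of 0.177 (edgeR). The low trophectoderm markers of that embryo were given above, and their part in its Sclt1 reads was not tested.

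A strain difference would show as a paternal share that changes with the direction of the cross. In the main fit, which has no term for each embryo, none of the 4 genes was called for strain, against 1945 of the tested genes (15.5%). With cast over B6, the strain difference was -0.09 (log2, SE 0.52, adjusted p = 0.95) at Jade1, 0.02 (SE 0.65, adjusted p = 0.997) at Platr4, -0.56 (SE 0.60, adjusted p = 0.641) at 2400006E01Rik and 0.51 (SE 0.42, adjusted p = 0.525) at Sclt1 in the edgeR fit. At an unadjusted p under 0.05 the number of members was also 0, and DESeq2 called 0. With a replicate block, a term for each embryo that pairs its alleles, 2400006E01Rik was called for strain at -2.59 (edgeR adjusted p = 0.00481) and its parental difference was 6.57. The size of the blocked strain value depends on the prior count of the fit, since the cast maternal allele had no reads. No other member changed its call with the block.

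**Figure D2:**
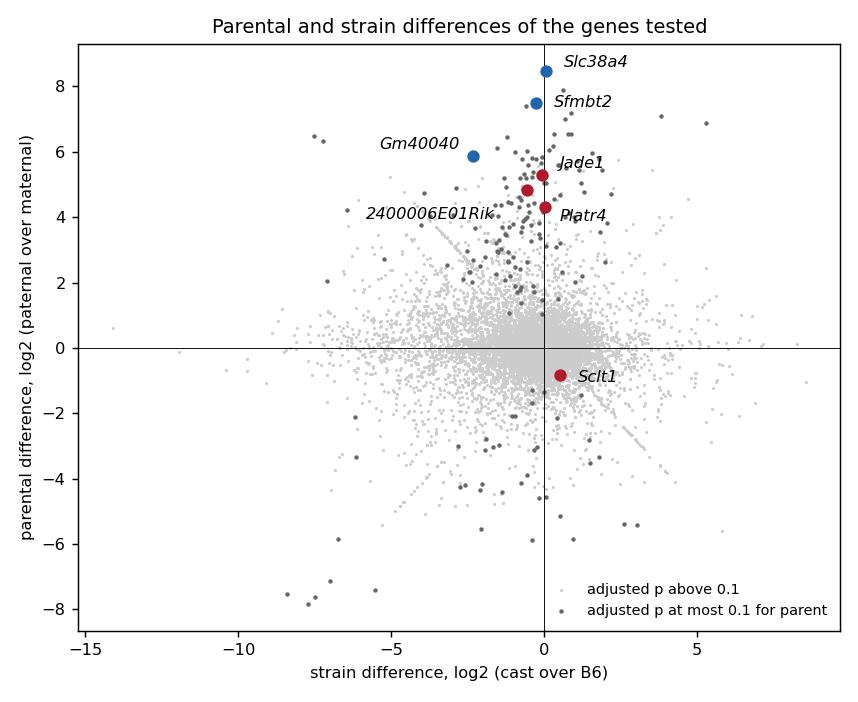
Each point is 1 of 12565 autosomal genes, with the log2 strain difference (cast over B6) on the horizontal and the log2 parental difference (paternal over maternal) on the vertical axis, and dark grey for genes called for parent. Jade1, 2400006E01Rik and Platr4 (red) lay at parental differences of 4.32 to 5.28 and strain differences of -0.56 to 0.02, with Sclt1 (red) at -0.81, below Gm40040, Slc38a4 and Sfmbt2 (blue).

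The total reads of the genes, both alleles together, were compared between crosses. Forward over reverse, the log2 difference was 0.65 (SE 0.50) at Platr4, 0.43 (SE 0.38) at 2400006E01Rik, 0.15 (SE 0.33) at Jade1 and 0.00 (SE 0.47) at Sclt1. None was called in the edgeR fit, whose adjusted p ranged from 0.775 to 1, and 13 of all genes tested were (0.103%). That number was 163 without reverse embryo 1, and DESeq2 called 130. None of the 4 had an unadjusted p under 0.05, and DESeq2 called 0 of them.

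The maternal reads of the 3 paternally biased genes were not spread evenly over embryos. Summed over Platr4, 2400006E01Rik and Jade1, the maternal share was 10.9%, 5.88% and 0.881% in forward embryos 1, 2 and 3. It was 0 in reverse embryos 1, 2, 3 and 5 and 7.14% in reverse embryo 7. In the forward embryos each of the 3 genes contributed, with the exception of Platr4 in embryo 3. In reverse embryo 7 they came from Jade1 (7 of 66 reads) and Platr4 (1 of 7), while 2400006E01Rik had 0 of 39, which allows up to 7.69%. The 95% exact intervals of the paternal share, 79.4% to 95.6% for Jade1 and 91.0% to 100% for 2400006E01Rik, overlap.

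Slc38a4, which encodes an amino acid transporter, and Sfmbt2, which encodes a Polycomb group protein, are other paternally expressed genes. Slc38a4 was higher on the paternal allele by 8.48 (log2, edgeR adjusted p = 1.44e-11) and Sfmbt2 by 7.49 (edgeR adjusted p = 2.65e-08). The mean maternal share over the 8 embryos was 3.10% at the 3 genes, 0.179% at Slc38a4 and 0.553% at Sfmbt2. The difference was 2.92 percentage points (SD 4.13, n = 8) against Slc38a4 and 2.55 (SD 4.20, n = 8) against Sfmbt2. The share was higher in 4 and in 3 of the 8 embryos, lower in 1 and in 2, and equal in 3. An exact two-sided paired permutation test over embryos gave p = 0.125 and p = 0.25 (both 0.25 after adjustment over these 2 comparisons), and with 3 ties it cannot go below 0.0625. Without forward embryo 1 the differences were 1.85 and 1.40 percentage points.

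A list of 13 further genes known for paternal expression was read in the same way. Impact (207 maternal and 281 paternal reads) and Inpp5f (120 and 160) were read from both alleles here and held the most maternal reads of the list. With them included, the summed maternal share was 13.7%, 10.8% and 3.68% in the forward embryos and between 4.56% and 7.27% in the reverse embryos. The median share of the genes with at least 5 reads was 11.2%, 2.65% and 0% in the forward and 0% to 1.47% in the reverse embryos. Forward embryo 1 had the highest maternal share by either measure, as at the Jade1 locus. At Slc38a4 and Sfmbt2 the highest share was in forward embryo 2, with 0.602% and 2.54%, against 0.508% and 0.292% in forward embryo 1. Forward embryo 1 also had the highest level of the macrophage and leukocyte genes, and the part of that RNA in the maternal reads of the locus was not tested. Reverse embryo 7, with 7.14% maternal reads at the locus, had 4.72 CPM of those genes, and forward embryo 3, with 0.881%, had 58.7. The plot of maternal shares sets the embryos side by side.

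**Figure D3:**
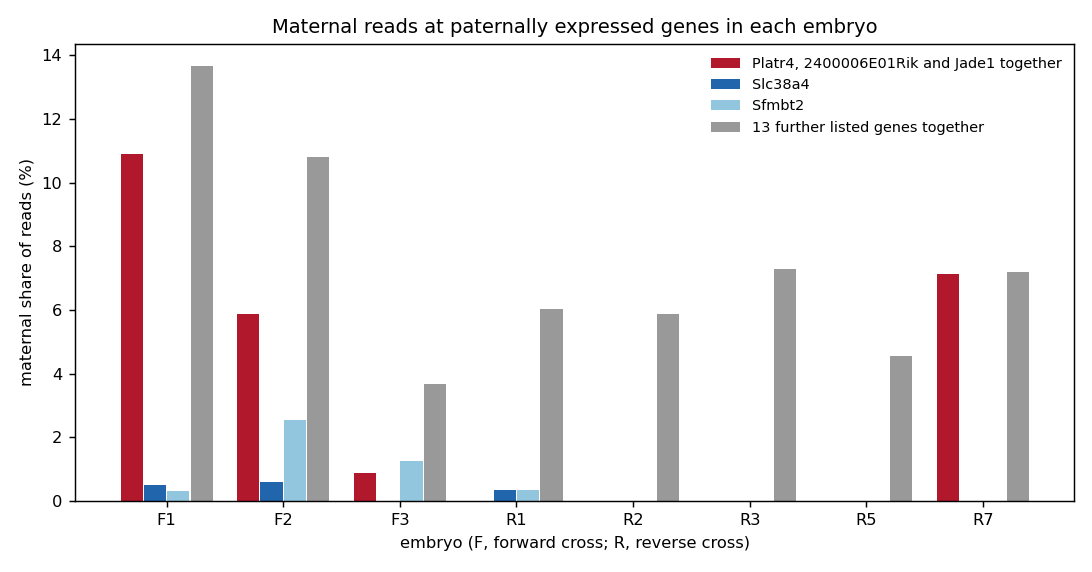
Bars give the maternal share of the reads in percent for each embryo (F, forward; R, reverse), for the 3 paternally biased genes together (red), Slc38a4 (dark blue), Sfmbt2 (light blue) and 13 further listed genes together, Impact and Inpp5f included (grey). The red bar was 0 in reverse embryos 1, 2, 3 and 5 and reached 10.9% in forward embryo 1.

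The paternal levels of the 4 genes were also compared over embryos, as log2 of paternal CPM plus 1, scaled within each allele library. Jade1 had 179, 263 and 223 paternal CPM in the forward and 204, 153, 90.1, 215 and 96.3 in the reverse embryos. Platr4 had 35.3, 67.8 and 42.7, and 30.1, 29.1, 12.7, 38.8 and 9.79. Reverse embryos 3 and 7 were the lowest for both genes, and forward embryo 2 the highest. Pearson's r was 0.96 (exact permutation p = 0.000719, n = 8) and Spearman's rho 0.95 (exact permutation p = 0.00114), which were 0.00216 and 0.00342 after adjustment over the 6 pairs. Without reverse embryos 3 and 7 r was 0.85, and it was 0.95 after the mean of each cross was taken off, 0.97 without forward embryo 1 and 0.98 without reverse embryo 1. The points share the depth and composition of their libraries, and each cross has too few embryos for a value of its own.

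The levels of 2400006E01Rik fell into separate clusters. Reverse embryos 3, 5 and 7 had 57.8, 64.7 and 63.7 paternal CPM, and the other 5 embryos 128 to 195. Sclt1 had 6.93, 11.6 and 8.16 paternal CPM in the same 3 embryos and 18.5 to 26.9 in the other 5. Over all 8 embryos, both clusters included, Pearson's r of these genes was 0.96 (exact permutation p = 0.000273, adjusted over the 6 pairs 0.00164) and Spearman's rho 0.95. It was 0.94 without reverse embryos 3 and 7 and 0.95 after the mean of each cross was taken off. These values span the gap between clusters, and the relation within clusters of 3 and 5 embryos was not tested. Reverse embryo 5 was low for 2400006E01Rik and among the high embryos for Jade1, which is the difference between the middle and right panels of the plot of paternal levels.

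**Figure D4:**
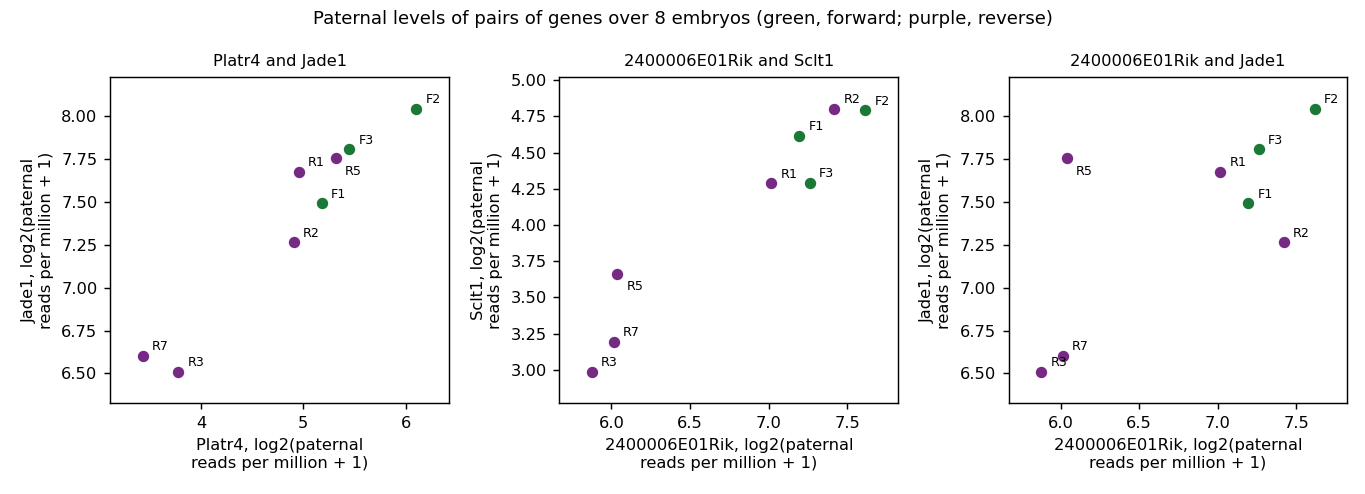
Each point is 1 embryo (green, forward; purple, reverse) with log2 of paternal CPM plus 1 of a gene on each axis, for Platr4 and Jade1 (left), 2400006E01Rik and Sclt1 (middle) and 2400006E01Rik and Jade1 (right). Reverse embryos 3 and 7 were low in every panel, and reverse embryo 5 was low for 2400006E01Rik and Sclt1 but at 215 paternal CPM for Jade1.

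Among 9329 other autosomal genes with at least 100 reads, the pattern most like that of Jade1 over all 16 allele libraries was that of Platr4 (Pearson's r = 0.98). It was followed by Gm32885 on chromosome 15 (0.97), Mbnl2 on chromosome 14 (0.96), Gm33149 on chromosome 15 (0.95) and 2400006E01Rik (0.94). Gm32885, Mbnl2 and Gm33149 had 1863, 1240 and 341 paternal against 7, 34 and 5 maternal reads. Over the 8 paternal libraries alone, Platr4 ranked 3rd by likeness to Jade1, Sclt1 469th and 2400006E01Rik 776th. These ranks are a description, since a gene read from 1 parental allele resembles any other such gene over the 16 libraries.

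The genes around the locus were then examined. Of 36 other annotated genes within 1 Mb on either side of the interval, 13 had a row and 10 were tested. Gm40040, a lincRNA whose span at chr3:41477577-41482391 ends 1.63 kb from Platr4, on the same strand, was the 1 gene called. It had 2, 3 and 1 paternal reads in the forward and 13, 32, 15, 22 and 6 in the reverse embryos, and 0 maternal reads in all 8. Over all embryos the paternal allele was thus at least 28.9-fold higher per library total, with a floor of 3 reads (edgeR adjusted p = 0.00459). The bound was 21.4-fold from the 88 reverse reads and 2.76-fold from the 6 forward reads, which allow a maternal share of up to 50%. Parent and strain were thus poorly separated. The strain difference was -2.33 (log2, edgeR adjusted p = 0.122), not called. It was called with 1 library size per embryo (edgeR adjusted p = 0.0616) and without reverse embryo 1 (edgeR adjusted p = 0.0747). The parental call of Gm40040 held over the 16 fits that gave a value, with adjusted p values of 8.81e-05 to 0.0352 (edgeR and DESeq2). These fits share the same reads, and with at least 10 reads in every embryo the gene gave no value. Gm40040 passed the filter on low counts through paternal reads of the reverse cross only. With fewer than 5 reads in each forward embryo it could not meet the 70:30 criterion, and its summed reads differed between crosses by -2.96 (log2, forward over reverse), which was not called by edgeR (adjusted p = 0.369) but was by DESeq2 (-3.06, adjusted p = 0.0682).

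None of the 9 other tested neighbours was called for parent, by edgeR or DESeq2, where edgeR called 1.42% of all genes tested. In the edgeR fit 920 of all 12565 genes had an unadjusted p under 0.05, and 0 of these 9 did. Their parental differences ran from -0.76 at Plk4, which encodes the kinase of centriole duplication, to 1.08 at Pgrmc2. Pgrmc2, the nearest tested gene on the Gm40040 side, had a paternal share of 69.0% ± 7.6 (SD, n = 3) and 65.3% ± 30.4 (SD, n = 5), and was not called (edgeR adjusted p = 0.70). More paternal than maternal reads of Pgrmc2 were counted in 3 of 3 forward and 4 of 5 reverse embryos. Its unadjusted p was 0.0354 with DESeq2 (adjusted p = 0.592) and 0.0460 with edgeR's replicate block (adjusted p = 0.498). Over 16 fits its parental difference ran from 0.96 to 1.38, the highest without reverse embryo 3 (edgeR unadjusted p = 0.0106, adjusted p = 0.338). None of the 10 neighbours passed the edgeR equivalence test, against 35.6% of all genes tested. An unadjusted p under 0.05 in it was found for 0 of them, against 5036 of all 12565 genes. All but Larp1b (436 reads) had fewer reads than the median of 309 over the genes tested, which limits this test. Genes called toward the paternal allele thus ran without interruption among the tested genes from Gm40040 to Jade1. Uncalled genes lay next to them on both sides. Neither of these, Pgrmc2 nor Sclt1, passed the equivalence test, so the calls do not set the ends of the run.

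On the other side, D3Ertd751e starts 97 bases from the start of Sclt1 in the opposite direction. It had 10, 7 and 0 maternal reads in the forward and 49, 1, 3, 3 and 3 in the reverse embryos, against 3, 5 and 0, and 11, 20, 0, 6 and 6 paternal reads. Reverse embryo 1 thus had the highest maternal count at both genes of the pair. Reverse embryo 2 had more paternal than maternal reads at both, 20 against 1 at D3Ertd751e and 25 against 13 at Sclt1. The parental difference of D3Ertd751e was -0.64 (log2, edgeR adjusted p = 1), and without reverse embryo 1 it was 0.27. The 10 tested neighbours and the members stand in chromosomal order in the plot of paternal shares.

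**Figure D5:**
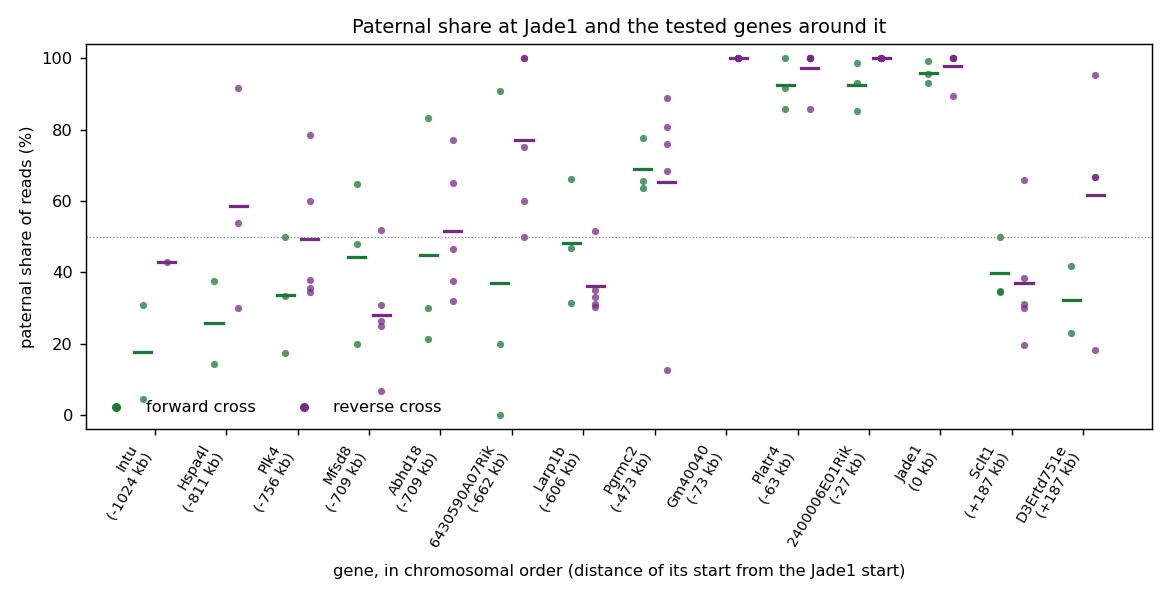
Points give the paternal share of the reads of a gene in percent in single embryos with at least 5 reads (green, forward; purple, reverse), lines give the mean of a cross, and genes stand in chromosomal order with the distance of their start from the Jade1 start. The shares of Gm40040, Platr4, 2400006E01Rik and Jade1 lay at 85.3% or above, and those of the other 10 genes spread from 0% to 100% over single embryos, with cross means on both sides of the dotted line at 50%. Gm40040 has points from the reverse cross only.

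Genes with a role related to that of Jade1 were listed. Of 9 genes of the JADE family and the HBO1 complex and its relatives, Jade2 had 6 maternal and 6 paternal reads and stayed below the filter, and Jade3, which is X-linked, was not tested. The remaining 7 were Kat7, the acetyltransferase itself, the ING proteins Ing4 and Ing5, Meaf6, and the scaffold proteins Brd1, Brpf1 and Brpf3. None of the 7 was called for parent in the edgeR or DESeq2 fit and 0 had an unadjusted p under 0.05, where 1.42% of all genes tested were called. All 7 passed the equivalence test, against 35.6% of all genes, but 4, 3 and 1 did without forward embryos 1, 2 and 3 (17.1%, 14.7% and 12.9% of all genes), 4 did without reverse embryo 5, and 0 did at a margin of 1.5-fold. Among genes with at least 10 reads in every embryo, these 7 passed and so did 78.1% of all genes. The contrast with all genes thus depends on the reads of the genes compared. Their median parental difference was 0.04, against -0.01 over all genes tested. Kat7 had 1123 maternal and 1080 paternal reads.

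The distal appendage genes gave a like count. Of 9 listed beside Sclt1, all were tested, 0 were called for parent by edgeR or DESeq2, and 0 had an unadjusted p under 0.05, where 1.42% of all genes tested were called. The equivalence test was passed by 5 of the 9, against 35.6% of all genes, and by 3, 2 and 1 without forward embryos 1, 2 and 3, 3 without reverse embryo 7 and 0 at a margin of 1.5-fold, and their median parental difference was -0.05. Among genes with at least 10 reads in every embryo, 5 of the 7 left on this list passed, against 78.1% of all genes. Cep83 was the lowest at -0.78 (125 maternal and 96 paternal reads) and Cep164 the highest at 0.44 (384 and 548 reads).

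Of 15 other Platr genes with a row, 11 were tested and 2 were called toward the paternal allele, by edgeR and by DESeq2, against 1.11% of all genes tested. An unadjusted p under 0.05 was found for 3, and the one not called, Platr3 on chromosome 2, had 0 maternal and 42 paternal reads (edgeR adjusted p = 0.148). Platr20 on chromosome 11 had 5 maternal and 206 paternal reads (log2 difference 4.92, SE 0.65, edgeR adjusted p = 2.89e-05). Platr5 on chromosome 1 had 16 maternal and 144 paternal reads (log2 difference 3.27, SE 0.82, edgeR adjusted p = 0.0427). Platr14 on chromosome 2, with 963 maternal and 961 paternal reads, was at -0.01. The 11 genes had a median of -0.02. Platr20 and Platr3, with 5 and 0 maternal reads, passed the filter on low counts through paternal reads only. The same filter applied to all genes behind the 1.11%.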

How the data were processed

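SNP-spanning reads of 8 single blastocysts were analysed, 3 forward and 5 reverse. The deposited values are counts per gene, embryo and strain, not normalized, which per the methods the authors made by alignment to mm10 with STAR, removal of multi-mapping reads and an intermediate step of Allelome.Pro. The STAR version given in the labels (2.5.2b) is not that of the methods. Use of strand was not given in the sources used here. Per the methods the authors removed 2 samples, for low mapping or few total reads. Reads were assigned to parents by cross. Intervals and limits for counts of 0 (3 reads) cover counting error only.

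Genes were placed with GENCODE M21 and RefSeq. Parental and strain differences were fitted with edgeR 4.0.16 in R 4.3.3 (TMM over 16 allele libraries, terms strain and parent, quasi-likelihood test, autosomal genes with at least 10 reads in at least 1 library, adjusted p at most 0.1). The cross difference used summed reads per embryo. The study used DESeq2, here (1.42.0) an alternative. Standard errors are unshrunk estimates over the square root of F, and fitted differences include edgeR's prior count. Other alternatives were RLE normalization, 1 common library size for both alleles of an embryo, looser and stricter filters, X-linked genes kept, a term for each embryo, parent alone, and each embryo left out. Scripts were tested on simulated data.

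The alleles of 1 embryo come from the same animal and form a true pair. Their deviations from the group means correlated at 0.0823 to 0.132 in forward and 0.145 to 0.488 in reverse embryos.

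The members and gene lists were chosen with earlier results of these data known. Named genes are the members, tested genes within 1 Mb, fixed lists of the HBO1 complex, distal appendages and Platr genes, and the 5 genes most like Jade1.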

Additional observations from a re-analysis of the deposited data

Results flagged for a closer look

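Values of the reverse embryos, the one group of more than 3, were searched for an embryo far from the others, in 18 sets of 5 values, of which 6 had one. The rule is set to flag about 1 in 20 by chance, but this rate does not hold where all other embryos have 0 maternal reads. Any read in the remaining embryo is then flagged, as at Jade1 and Platr4. The 6 of 18 can therefore not be compared with that rate. The sets are not independent, since a maternal level and a paternal share rest on the same reads.

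Reverse embryo 7 stood apart for Jade1, with 15.6 maternal CPM and a paternal share of 89.4% against 0 and 100% in the other 4 embryos. The same embryo stood apart for Platr4, at 2.24 maternal CPM and a share of 85.7%, from 1 maternal read.

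Reverse embryo 1 stood apart for Sclt1, with 103 maternal CPM against 17.9 to 35.8, and for D3Ertd751e, with 76.4 against 1.49 to 6.71. The causes were not tested.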

How the results depend on the processing

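The parental calls of Jade1, 2400006E01Rik and Platr4 and the lack of one at Sclt1 held in every alternative that gave a value. Platr4 gave none with at least 10 reads in every embryo. Leaving out single embryos gave log2 differences of 5.04 to 5.89 (Jade1), 4.57 to 5.85 (2400006E01Rik), 4.08 to 4.93 (Platr4) and -1.08 to -0.50 (Sclt1). The number of genes called for parent was 406 without a filter, 75 with at least 10 reads in every embryo, 524 with X-linked and unplaced genes, 389 with the replicate block and 120 to 195 without single embryos. The number called for a cross difference was 13, and 9 with RLE factors, 143 without a filter, 0 with the strict filter (512 at an unadjusted p under 0.05) and 3 to 163 without single embryos. For strain it was 1068 with the strict filter, 3207 with the block and 1206 to 2453 without single embryos. The block called 2400006E01Rik for strain (-2.59) and changed no other member's call.

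Uncalled values near 0 changed sign. The strain difference of Platr4 was -0.017 with DESeq2, -0.30 with 1 library size per embryo, -0.00016 with X-linked genes kept and -0.82 with the block, and -0.24 to 0.33 without single embryos, as was that of Jade1 at -0.55 to 0.15. The cross difference of Sclt1 was -0.030 with DESeq2, -0.029 with RLE factors and -0.048 with the strict filter. It was -0.16 to 0.40 without single embryos, and that of Jade1 -0.0083 to 0.30.

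Without reverse embryos 3 and 7, the correlation of paternal levels fell to 0.26 (Platr4 and 2400006E01Rik), 0.15 (Platr4 and Sclt1), -0.027 (2400006E01Rik and Jade1) and -0.23 (Jade1 and Sclt1), so these rest on those embryos. Platr4 and Sclt1 had a rho of 0.50 and an r of 0.68 after the cross means were taken off, and neither passed (permutation). That setting, the correlations without forward or reverse embryo 1 and the equivalence counts of lists by setting were chosen after seeing the data. The causes were not tested. Depth limits the maternal shares of Platr4 most.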
